A study of Mus musculus with 98 samples.

Results

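The cells described here make up 35 of the 98 samples in a series of single innate lymphoid cells (ILCs). They are the regenerated R9-ILCs whose titles end in 1. They were split by their own level of Ccr6, and the groups were therefore selected on measured values of that gene. The 10 cells with Ccr6 at 10 TPM or more (transcripts per 1000000, scaled for gene length) are called Ccr6-high, and the 25 cells under 10 TPM are called Ccr6-low. The series profiled the RNA of regenerated and natural ILCs of the mouse gut, 1 cell at a time and over whole transcripts. R9-ILCs were derived from pluripotent stem cells and taken from the gut of Rag2-/-Il2rg-/- recipients 3 weeks after transplantation, in the sort gate GFP+, CD45.2+, Lin-, CD127+. Both Ccr6 groups share that origin, host, gate and time, and are told apart by the split alone. The recipients lack their own T cells, B cells and ILCs, while their gut epithelium and myeloid cells remain. WT-ILCs, used below only as a second set of cells to split, came from the intestine of C57BL/6 mice (CD45.2) aged 8 weeks and were sorted as Lin-, CD127+. The labels do not say what the title endings mean, and they name no animal or clone.

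CCR6 is the receptor for the chemokine CCL20, which gut epithelium makes above lymphoid follicles. Group 3 ILCs (ILC3s) respond to interleukin 23 and make interleukin 22, and in the gut their CCR6-bearing members include the lymphoid tissue inducer (LTi) cells, which display lymphotoxin and start the formation of lymph nodes, Peyer's patches and cryptopatches. ILC3s without CCR6 include cells that can gain T-bet and natural cytotoxicity receptors and come to resemble group 1 ILCs.

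Ccr6 lies at chr17:8236041-8258519 (GRCm38.p6, RefSeq). In the Ccr6-high cells its lowest, median and highest levels were 26.6, 659.8 and 2080 TPM. In the Ccr6-low cells they were 0, 2.97 and 6.97 TPM. These values set the groups and were not tested. The high cells nearest the limit had 26.6 and 39.4 TPM, the other 8 high cells had 569.8 TPM or more, and the low cell nearest the limit had 6.97 TPM. Most low cells were not at 0: Ccr6 was listed at 0 in 3, above 0 but under 1 TPM in 1, and between 1 and 10 TPM in 21. The split thus separates cells mostly at 569.8 TPM or more from cells at a few TPM. A limit of 20 TPM gave the same 10 and 25 cells.

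**Figure D1:**
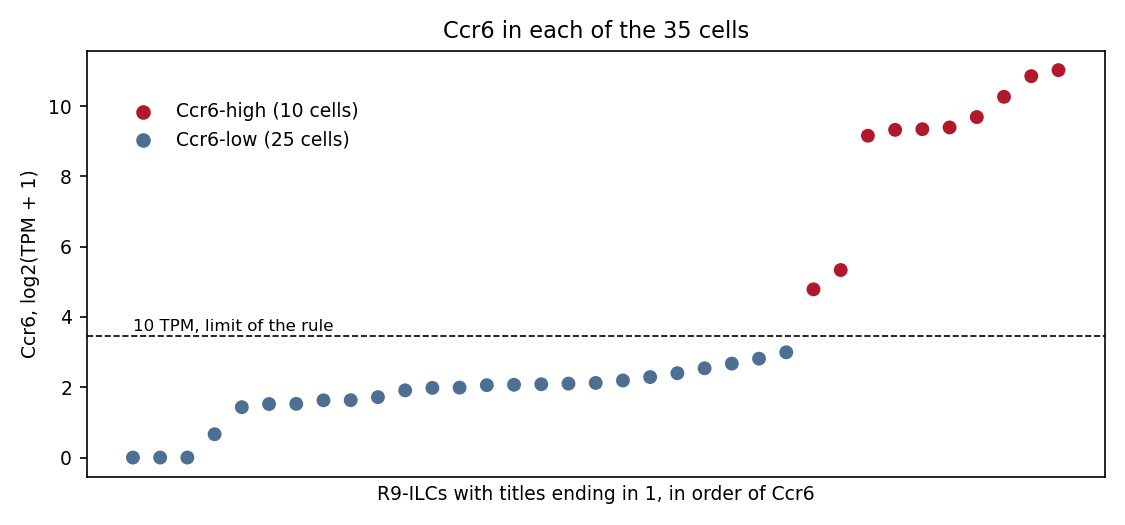
Ccr6 in each of the 35 cells, as log2(TPM + 1) on the vertical axis, with the cells in order of Ccr6. Red points are the 10 Ccr6-high cells, blue points are the 25 Ccr6-low cells and the dashed line is the limit of 10 TPM; 2 high cells, at 26.6 and 39.4 TPM, sit between the rest of the high cells and the low cells.

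Both groups carried some ILC3 transcripts, which matches the ILC3-like label in part. Tmem176a and Tmem176b, which encode membrane proteins typical of ILC3s, were at 10 TPM or more in all 35 cells, and Il23r was at that level in 6 of 10 high and 14 of 25 low cells. Il2rg, the common cytokine receptor chain that the recipients lack, was also at 10 TPM or more in all 35 cells. Some other genes of the ILC3 list were sparse. Ahr reached 10 TPM only in the low cell 25-1 (44.8 TPM) and the high cell 42-1 (11.8 TPM). Il17f did not exceed 1.45 TPM, and Il17a was under 1 TPM in every cell. Genes detected at 1 TPM or more numbered 2011, 2451 and 4549 (lowest, median and highest) in high cells and 1913, 2429 and 6042 in low cells. At 100 TPM or more the numbers were 1125, 1364 and 2293 against 781, 1208 and 1770, so that high cells had more genes at high TPM at the median. Standing apart were 4 cells, 1 high and 3 low, with over 4000 genes at 1 TPM or more. Their pairwise correlations of log2(TPM + 1) over shared genes (0.387 to 0.562) lay above those of all pairs of high cells (0.131 to 0.284). Over all pairs of high cells that correlation had a median of 0.219, beside 0.207 among low cells and 0.205 between high and low cells. A pair of cells in 1 group was therefore about as alike as a pair across the groups.

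Each gene was described by its difference, the mean of log2(TPM + 1) over the high cells minus that over the low cells, and by the number of cells at 10 TPM or more. Since no animal is named, each group counts as 1 sample: no p-value was computed, SDs are spreads over cells, and intervals on shares are exact Clopper-Pearson intervals for counting error only. A gene was used when it reached 1 TPM in at least 5 of the 35 cells, and a difference of at least 2 (4-fold on that scale) is called past the limit. Of 5843 genes used, 346 were higher past the limit (5.92%) and 120 were lower (2.05%). The median difference was 0.04 and the SD of the differences over genes was 1.13. The SD over cells inside a group had a median over genes of 3.01 in high and 2.90 in low cells, which is larger than the limit itself. Values were divided between extremes: 48.0% of them were listed at 0 in high cells and 47.3% in low cells, while 23.3% and 19.7% were at 100 TPM or more. A difference in the mean can thus reflect how many cells had the gene at 100 TPM or more. How far it does was not computed gene by gene.

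The LTi and CCR6+ ILC3 genes leaned towards the high cells without a common shift, and the lean was not particular to them. Medians of the pathway lists ran from -0.66 (ILC2) to 0.91 (survival and death), with 0.81 for ILC3 core and 0.79 for interferon-stimulated genes. Of 24 listed LTi genes 14 could be used. Higher past the limit were 2 of them, Cd81 and Nrp1, where 5.92% of all genes used were. None of the 14 was lower past it, and 9 lay above 0 and 5 below. Their median difference was 0.79, beside 0.04 over all genes used, but it was -0.36, beside -0.13, when TPM was averaged before the log2 was taken, a scale that a few very high cells dominate. On the medians of log2 values it was 0.07, beside 0 over all genes, and with a Ccr6 limit of 1 TPM it was 0.20, below the 0.55 of all genes. Of the other 10, Cd4, Ccr7, Cxcr4, Vipr2 and Madcam1 were under 1 TPM in every one of the 35 cells, so the CD4 transcript that marks a part of LTi cells reached 1 TPM in neither group, and Tnfrsf11a, Cd93, Ret, Itga4 and Ltbr were in too few cells. Counted cell by cell, the number of listed LTi genes at 10 TPM or more was 4, 7 and 9 (lowest, median and highest) in high cells and 3, 5 and 9 in low cells, with wide overlap.

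Among the ligands, lymphotoxin was split between its subunits. Ltb, which encodes the membrane-anchoring lymphotoxin beta, had 1662, 6132 and 14146 TPM (lowest, median and highest) in high cells and 52.5, 3638 and 13938 TPM in low cells, a difference of 0.66 (12.22 ± 1.15, SD, n = 10 cells, against 11.57 ± 1.82, SD, n = 25 cells). Both groups held cells near the top of that range, and only low cells were below 1662 TPM. Lta, which encodes the partner lymphotoxin alpha, was low in nearly all cells, at 0, 2.79 and 13.5 TPM in high cells and 0, 3.86 and 1518 TPM in low cells. It reached 10 TPM in 1 of 10 high and 5 of 25 low cells, and 100 TPM in 0 and 3, a difference of -0.97. Tnfsf11, which encodes RANKL, the signal to RANK-bearing stromal and epithelial cells, was at 10 TPM or more in 4 of 10 high and 5 of 25 low cells (difference 1.11, within the spread over cells of 4.21 and 3.48). Tnf itself was at that level in 2 cells of each group.

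Surface molecules gave the only members past the limit. Cd81, a tetraspanin of the immune cell surface at chr7:143052750-143067930, had 0, 801.2 and 2707 TPM in high cells and 0, 3.83 and 1232 TPM in low cells. At 10 TPM or more it was seen in 6 of 10 high cells (60.0%, 95% interval 26.2 to 87.8) and 7 of 25 low cells (28%, 12.1 to 49.4), and at 100 TPM or more in 6 and 3. The difference was 3.83 (6.94 ± 4.82 against 3.11 ± 2.83) and lay between 3.33 and 4.60 when any 1 cell was left out. With a Ccr6 limit of 1 TPM, which leaves 4 low cells, it was 0.38, under the limit of 2. The groups overlapped: 4 high cells were at 5.21 TPM or less, with Ccr6 from 26.6 to 1847 TPM, and the other 6 had Ccr6 from 39.4 to 2080 TPM. Nrp1, the semaphorin and VEGF co-receptor neuropilin 1 at chr8:128358591-128505476, was at 10 TPM or more in 4 of 10 high cells (40%, 12.2 to 73.8) and 2 of 25 low cells (8.00%, 0.984 to 26.03), with a difference of 2.04. That difference was under the limit with a pseudocount of 10 TPM (1.26) and on the medians of log2 values (0.29). It was 2.55 with a pseudocount of 0.1 TPM and 2.08 when TPM was averaged before the log2 was taken. Nrp1 fell outside the naming rule, since fewer than 50% of the cells of either group had it at 1 TPM. It is named because it makes up the count. Cd81 and Nrp1 were both at 10 TPM or more in 3 high cells and 1 low cell.

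Other LTi surface genes stayed within the limit. Kit, the stem cell factor receptor, had medians of 211.3 TPM in high and 48.4 TPM in low cells and reached 10 TPM in 6 of 10 and 14 of 25 (difference 0.92). Il1r1, the interleukin 1 receptor, reached 10 TPM in 3 and 4 cells (0.89). Cxcr5, the CXCL13 receptor that guides LTi cells to lymphoid anlagen, reached it in 2 and 5 cells (-0.14). Gpr183, the oxysterol receptor that positions ILC3s in cryptopatches, reached it in 7 and 16 cells (-0.27), and Itgb7, the integrin chain for gut homing, in 6 and 15 (-0.76). The maturation marker Cd83 was at 10 TPM or more in 4 and 7 cells (0.69). The 2 transcription factors of the list lay on opposite sides: Tox, needed for ILC and LTi development, was at 10 TPM or more in 5 of 10 high and 6 of 25 low cells (1.88), and Tcf7, which encodes TCF-1 of early ILC progenitors, in 2 of 10 and 10 of 25 (-1.79).

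**Figure D2:**
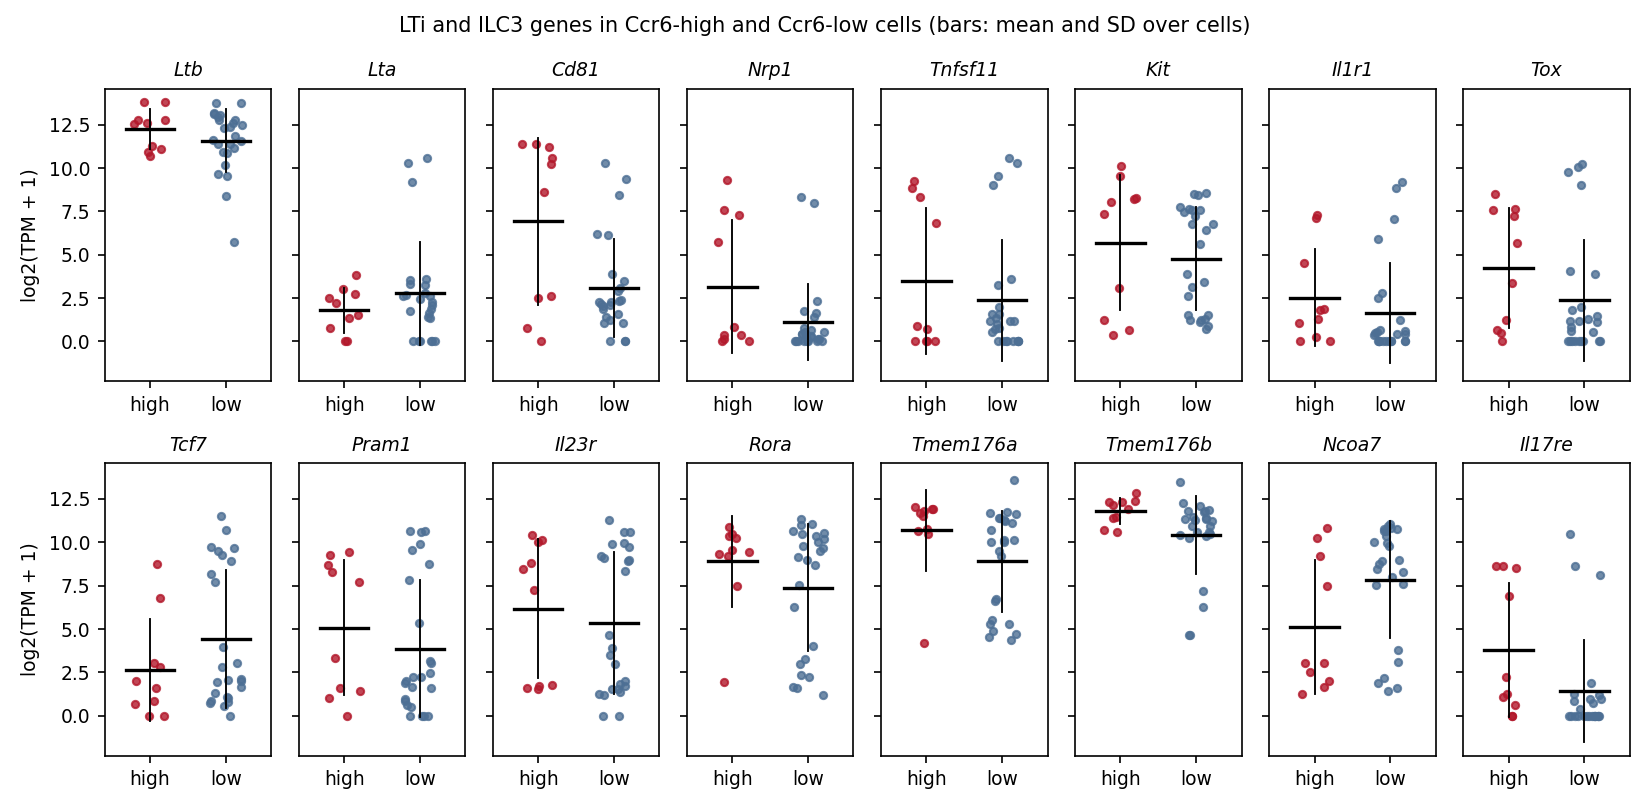
LTi genes (top row and Tcf7) and ILC3 core genes in every cell, as log2(TPM + 1), for the 10 Ccr6-high (red) and 25 Ccr6-low (blue) cells. Horizontal bars are means and vertical bars are 1 SD over cells; most genes form an upper and a lower cloud in both groups, and for Cd81 6 of 10 high cells but 3 of 25 low cells are in the upper one.

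ILC3 core genes were expressed in both groups, and 1 member passed the limit in each direction. Of 20 listed genes 15 were used, 11 above 0 and 4 below, with a median difference of 0.81, which was -0.31 when TPM was averaged before the log2 was taken. Rora, a nuclear receptor that ILCs use, was at 10 TPM or more in 9 of 10 and 18 of 25 cells (1.52), and Il23r, the interleukin 23 receptor chain, in 6 of 10 and 14 of 25 (0.81). Tmem176a had 17.4, 3094 and 4252 TPM in high cells and 19.8, 1054 and 12466 TPM in low cells, a difference of 1.77, and Tmem176b had 1538, 4174 and 7217 TPM against 24.04, 2431 and 11271 TPM, a difference of 1.39. The low cells thus held both the highest and the lowest Tmem176b values. Il17re, the receptor chain for interleukin 17C, was the member higher past the limit, at 10 TPM or more in 4 of 10 high and 3 of 25 low cells (2.37). With a pseudocount of 0.1 TPM its difference was 3.56. It was under the limit with a pseudocount of 10 TPM (1.31), with TPM averaged before the log2 (0.63) and on the medians of log2 values (1.74). Ncoa7, a nuclear receptor coactivator gene and ILC3 marker, was the member lower past it: 1.39, 7.25 and 1820 TPM in high cells against 1.71, 479.9 and 2082 TPM in low cells. It was at 10 TPM or more in 4 of 10 high (40%, 12.2 to 73.8) and 20 of 25 low cells (80.0%, 59.3 to 93.2), a difference of -2.72. That difference was -1.02, within the limit, when TPM was averaged before the log2 was taken. The effector cytokine Il22 reached 10 TPM in 1 high and 3 low cells, and Il17a reached 1 TPM in none of the 35.

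Genes of the ILC3 subset with natural cytotoxicity receptors, of ILC1s and of NK cells were sparse in both groups. Ncr1, the receptor NKp46, and Tbx21, which encodes T-bet, were under 1 TPM in all 35 cells, as were Eomes, Ifng, Gzma and Prf1, and 14 of the 27 listed genes in total. Of the 7 that could be used, 0 passed the limit in either direction, and their median difference was 0.06, or -0.19 when TPM was averaged first. The chemokine receptor Cxcr6, which ILCs share, had medians of 1577 and 903.1 TPM (0.32), and the signalling chain Fcer1g had 2853 and 3960 TPM (-0.20). ILC2 genes were as sparse: Il1rl1, Areg, Il5, Il13, Il4 and Rxrg were under 1 TPM in every cell, and 5 of 18 listed genes were used with 0 past the limit and a median of -0.66. The highest of these was Cd200r1, an inhibitory receptor, at 10 TPM or more in 3 of 10 high and 3 of 25 low cells (1.99). Gata3, which all ILCs use and ILC2s most, was at that level in 4 and 4 cells (1.35). It falls outside the naming rule and is given for its role.

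The genes with the largest differences were mostly outside the ILC lists. Highest was Igfbp7, a secreted binding protein of insulin-like growth factors (chr5:77349240-77408045), with 2.99, 659.2 and 1767 TPM in high cells and 0, 2.90 and 2776 TPM in low cells. It was at 10 TPM or more in 9 of 10 high (90.0%, 55.5 to 99.7) and 6 of 25 low cells (24%, 9.36 to 45.1), a difference of 5.51 (8.72 ± 2.55 against 3.21 ± 3.90), and between 5.29 and 6.26 with any 1 cell left out. It was 1.57, under the limit, when TPM was averaged before the log2 was taken. The single highest value was in a low cell. Polr2g, a subunit of RNA polymerase II, followed at 4.85, with 9 of 10 and 8 of 25 cells at 10 TPM or more, and 8 high but 4 low cells had both genes at that level. Nsg1, an endosomal protein better known from neurons, was at 10 TPM or more in 6 of 10 high and 1 of 25 low cells (4.75). Slc52a2, a riboflavin transporter, was at that level in 6 of 10 high and 0 of 25 low cells (0 to 13.7% for the latter share), where its highest value was 1.83 TPM (4.50). Cdkn2d, the p19 inhibitor of cyclin-dependent kinases, was at 10 TPM or more in 6 of 10 and 1 of 25 (4.29), with 227.7 TPM as the median in high cells and 0 in low cells.

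The other 7 of the 12 leading higher genes were Mpc1, a subunit of the mitochondrial pyruvate carrier (4.45), the splicing factor gene Cdc5l (4.39), the clock-controlled transcription factor gene Dbp (4.31), the histone chaperone gene Nap1l4 (4.29), the class I histocompatibility gene H2-Q6 (4.12), Tuba8, an alpha tubulin (4.11), and Ifngr2, the signalling chain of the interferon gamma receptor (4.10). Dbp and Mpc1 were at 10 TPM or more in 9 and 8 of 10 high cells and in 7 low cells each. Ifngr2 was at that level in 6 of 10 and 4 of 25. In each of the 12 genes except Slc52a2, at least 1 low cell was above the median of the high cells.

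On the lower side, Creld2, an endoplasmic reticulum stress protein, led with -4.14. It was at 10 TPM or more in 1 of 10 high cells, at 12.5 TPM, and in 12 of 25 low cells, where the highest was 1137 TPM. Cd3g, the gamma chain of the CD3 complex (chr9:44969572-44980431), was next at -4.05 among the genes the naming rule allows, which leaves out predicted genes. Its lowest, median and highest levels were 0, 1.85 and 3.55 TPM in high cells and 0, 6.70 and 6165 TPM in low cells, and it was at 10 TPM or more in 0 of 10 high (0 to 30.8%) and 10 of 25 low cells (40%, 21.1 to 61.3). All high cells were thus at the few-TPM level, while low cells fell into a lower and an upper cloud. Ctcf, the chromatin insulator protein, and Tdrkh, a Tudor domain protein, had the same shape, with 0 of 10 high cells against 11 and 10 of 25 low cells at 10 TPM or more (-3.47 and -3.34). Trmt112, a cofactor of methyltransferases, had medians of 3.39 TPM in high and 336.3 TPM in low cells, with 4 of 10 and 22 of 25 at 10 TPM or more (-3.37). The remaining leading lower genes were Pin4 (-3.84), Lamtor4 of the lysosomal Ragulator complex (-3.44), Ppp1r35 (-3.30), the mitochondrial import channel gene Timm23 (-3.20), Tsc22d4 (-3.08), the helicase gene Ddx39 (-3.05) and Ndufb2 of respiratory complex I (-3.04).

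**Figure D3:**
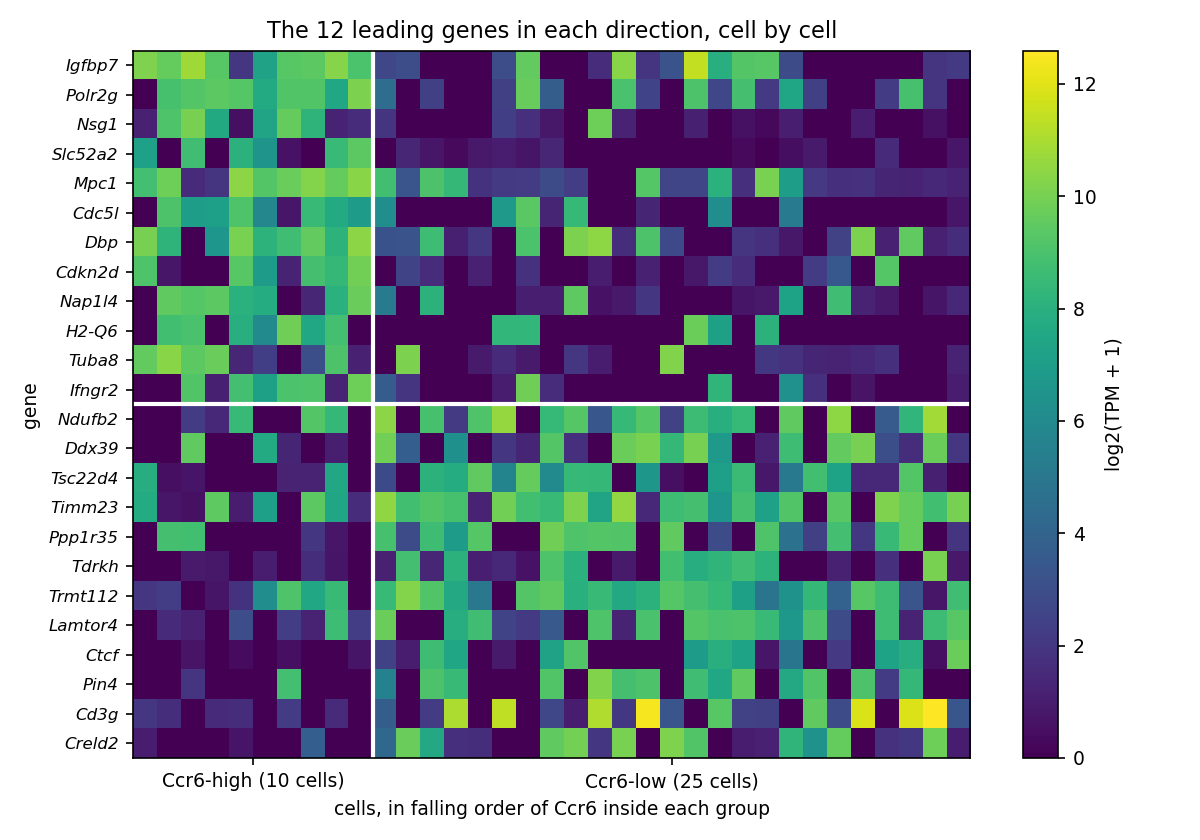
The 12 leading genes higher (top) and lower (bottom) in Ccr6-high cells, 1 row per gene and 1 column per cell, coloured by log2(TPM + 1), with cells in falling order of Ccr6 inside each group. Igfbp7 and Polr2g are at 10 TPM or more in 9 of 10 high cells each, and Cd3g is at that level in 10 low cells and 0 high cells.

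H2-Q6 was examined with its relatives after its value was seen. Of 34 class I histocompatibility and peptide-loading genes, 21 could be used. Higher past the limit were 8 of them, where 5.92% of all genes used were, and 0 were lower. Above 0 lay 20, with a median of 1.47, beside 0.04 over all genes used. That median stayed between 1.02 and 1.83 on the 5 other scales tried. The number higher past the limit was 3 with a pseudocount of 10 TPM and 10 with a pseudocount of 0.1 TPM. The 8 were H2-M3 (2.16), H2-Q4 (3.39), H2-Q5 (2.74), H2-Q6 (4.12), H2-Q7 (3.18), H2-Q8 (3.09), Tap2 (2.63), a chain of the peptide transporter, and Tapbp (2.16), which bridges it to class I molecules. H2-Q genes are near-identical copies whose reads the counting could split, so single members are uncertain. Their summed level was 70.4, 1858 and 6664 TPM (lowest, median and highest) in high cells and 6.51, 221.6 and 2324 TPM in low cells. The abundant class I genes differed by less: H2-K1 had 3498, 6849 and 9603 TPM in high cells against 68.6, 2688 and 12816 TPM in low cells (1.45), H2-D1 had a difference of 1.15, and B2m, the shared light chain, had 6837, 20383 and 34398 TPM against 2144, 9993 and 28195 TPM (1.16). All 10 high cells were above the low cells' median for H2-K1, and 9 of 10 were for B2m. In the other sets of cells described below, the median of the 21 genes was 0.37 in R9-ILCs without a title ending, where all genes had 0.36, and 0.45 in WT-ILCs, where all genes had 0.13. Among 13 interferon-stimulated genes used, 0 passed the limit, with a median of 0.79.

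The list of BCL2 family and other survival and death genes had 4 of 13 used members higher past the limit and 0 lower. Over all genes used, 5.92% were higher past it. In the list 12 lay above 0, with a median of 0.91. On the medians of log2 values the list's median was 0, the same as over all genes used. With a pseudocount of 10 TPM it was 0.74, and 1 member was higher past the limit. When TPM was averaged before the log2 was taken it was 1.12, with 5 members higher past the limit and 1 lower. Casp8, Xiap and Bcl10 are on the list but are not members of the BCL2 family. Bcl2l1, which encodes the anti-apoptotic BCL-XL, was at 10 TPM or more in 5 of 10 high (50%, 18.7 to 81.3) and 2 of 25 low cells (8.00%, 0.984 to 26.03), a difference of 3.54. Bcl2, anti-apoptotic as well, was at that level in 7 and 8 cells, with medians of 118.7 and 1.47 TPM (2.65), and the pair were at 10 TPM or more together in 4 high and 0 low cells. The death genes Bax, at 10 TPM or more in 8 and 15 cells (2.55), and Casp8, in 4 and 2 cells (2.15), were higher too, so the 4 members act in opposite directions on cell death.

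NF-kappa B genes were mixed. Of 19 genes used in the lymphotoxin, TNF and NF-kappa B list, 3 were higher past the limit and 1 was lower. Over all genes used, 5.92% were higher past it and 2.05% lower. The higher members were Nfkb2 (2.74), the receptor adaptor Traf1 (2.64) and the inhibitor Nfkbie (2.43), and the lower was Rela (-2.23). The list's median was -0.16. With a pseudocount of 10 TPM that median was 0.14, and 0 of the 19 were past the limit. Nfkb2 encodes p100, the precursor that lymphotoxin receptor signals process, and it was at 10 TPM or more in 6 of 10 and 7 of 25 cells. Rela, the p65 subunit, was at that level in 2 of 10 and 11 of 25. Among 24 cytokine receptors and signal chains Ifngr2 and Il17re passed the limit, and the median was 0.72 (-0.06 when TPM was averaged first). Il2rg had 279.8, 3380 and 5969 TPM in high cells and 19.04, 1432 and 5728 TPM in low cells (1.80), while Il7r, which encodes the CD127 of the sort gate, had medians of 1455 and 1440 TPM (-0.32).

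Of 23 ILC transcription factors used, 2 were higher past the limit, Tcf3 (2.77), which encodes the E proteins E12 and E47, and Fli1 (2.01). Over all genes used, 5.92% were higher past it and 2.05% lower. With a pseudocount of 10 TPM these 2 genes were under the limit, at 1.81 and 1.17. Id2, the E protein inhibitor that all ILCs need, differed by 0.62, from medians of 5597 and 3421 TPM. Among adhesion genes Cd96, a nectin receptor, was lower past the limit, with medians of 33.9 and 890.0 TPM and 6 of 10 against 21 of 25 cells at 10 TPM or more (-2.80). It was 1 of 12 used, and the median of those was -0.29. Chemokine receptor and positioning genes (5 used), immediate early genes (12), heat shock genes (13), glycolysis genes (14), MHC class II genes (3) and neuropeptide receptor genes (4) had 0 past the limit, with medians of -0.03, -0.23, -0.02, 0.54, 0.69 and 0.86. In the cell cycle list 2 of 14 were higher, and both, Cdkn2d and Cdkn1a (2.04), encode inhibitors of cyclin-dependent kinases. The list's median was -0.04, or 0.44 when TPM was averaged first, and Mki67, Top2a and Cdk1 were in too few cells to use. Of 41 listed nuclear oxidative phosphorylation genes, all used, 1 was higher past the limit, Atp5g1 (2.17), and 0 were lower. The median was 0.29, or -0.11 when TPM was averaged first. The list does not hold Ndufb2 of respiratory complex I, which was lower past the limit (-3.04).

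The 20 genes that nearly every cell uses were set beside these lists. Hprt (-2.97) and Actg1 (-2.21) were past the limit although they serve as references, at 10 TPM or more in 3 and 5 of 10 high cells and in 16 and 19 of 25 low cells. The median of the 20 was -0.11. Lower past the limit were thus 2 of these 20 genes, where 2.05% of all genes used were. With a pseudocount of 10 TPM 0 of the 20 were past it.

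**Figure D4:**
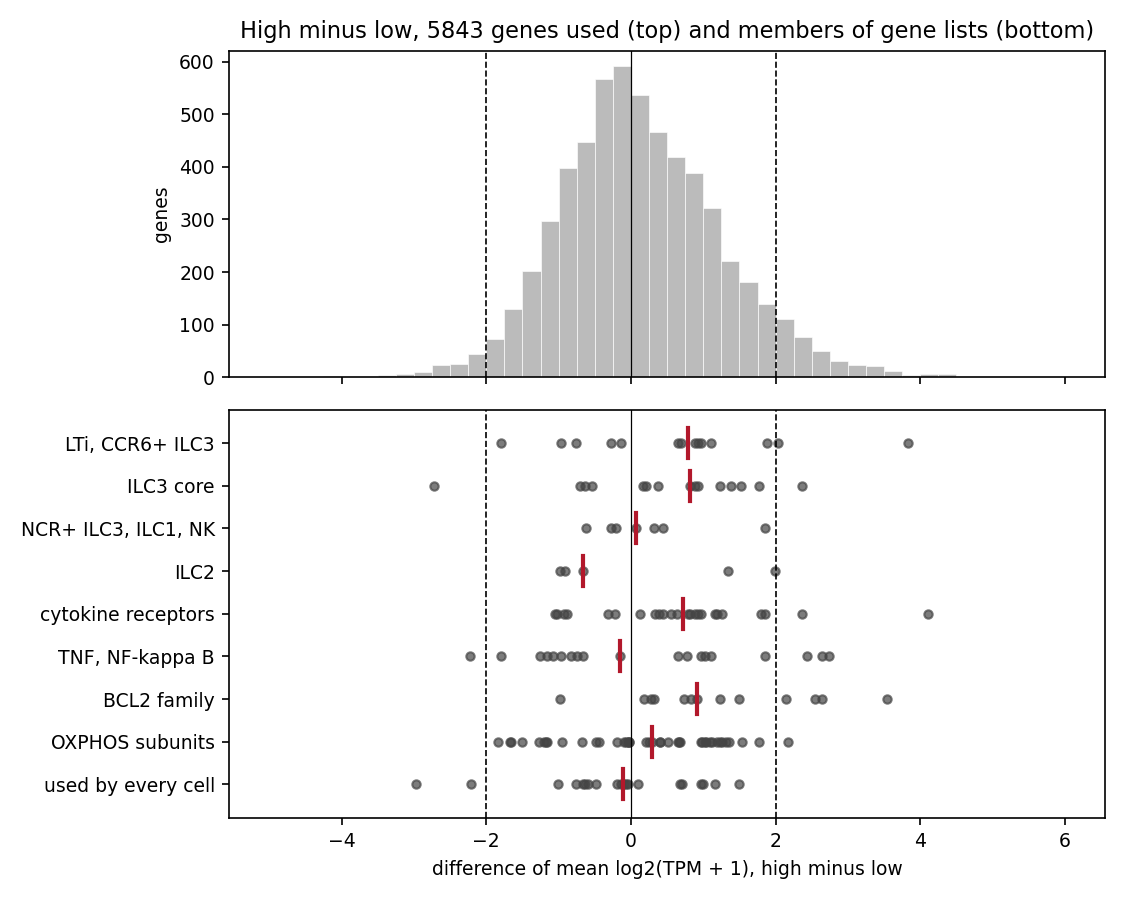
Differences of mean log2(TPM + 1), Ccr6-high minus Ccr6-low, for all 5843 genes used (top, counts of genes) and for the used members of 9 gene lists (bottom, 1 grey point per gene, red bar at the median). Dashed lines mark the limit of 2 in each direction. On the high side, 2 LTi genes and 4 genes of the row labelled BCL2 family lie beyond it. That row also holds other survival and death genes, and the caspase gene Casp8 is among the 4.

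Markers of other cells varied widely from cell to cell. Of 18 epithelial markers 15 were used and 0 passed the limit (median 0.07); their summed level ran from 0.753 to 18776 TPM in high cells and from 3.36 to 17797 TPM in low cells, with medians of 319.9 and 64.4 TPM, and Muc2 was under 1 TPM in every cell. Of 14 T cell markers 2 were used, Cd3g and Lat (-0.34). Beside Cd3g, Cd247, Cd8a, Cd8b1, Cd5, Cd28 and Foxp3 were under 1 TPM in every cell, and Cd3d and Cd3e reached 10 TPM in 1 low cell each, both with Cd3g at 10 TPM or more. Their summed level was 2.19, 107.1 and 1980 TPM in high cells and 0, 851.2 and 6165 TPM in low cells. The T cell receptor constant region genes Trac, Trbc1, Trbc2 and Trdc were on the list but could not be examined, since the deposited data hold no such symbols. The erythroid gene Hba-a1 was at 10 TPM or more in 1 of 10 high and 8 of 25 low cells (-2.97), and the erythroid sum reached 351.0 TPM in high and 194862 TPM in low cells, and Hba-a1 alone made up 19.3% of all TPM in 1 low cell. The macrophage list had 3 of 17 markers used, none past the limit, and Csf1r, Mrc1 and C1qb were under 1 TPM in every cell. Of 13 mast cell and 8 endothelial markers none could be used, and 10 and 7 of them were under 1 TPM in every cell. The part of these markers in the differences above was not tested.

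By position, the leading higher gene Mpc1 is the used gene nearest to Ccr6. It starts 25268 bases beyond the end of Ccr6 on chromosome 17 (chr17:8283787-8297667). The next, Sft2d1, lies 52569 bases away and differed by 1.73, and the remaining 3 used genes within 1000000 bases, Rnaset2a, Rsph3a and Tagap, differed by 0.70, 0.30 and -0.23. These neighbours were looked up after the values were seen.

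The same Ccr6 limit was then applied to cells the split had not used: the R9-ILCs without a title ending (28 high, 4 low) and the WT-ILCs (14 high, 8 low, after joining columns that appear to be 1 cell). Each set was compared only inside itself. The LTi list was on the high side in all 3, with medians of 0.79, 1.01 and 1.52 (title ending 1, no ending, WT) where all genes had 0.04, 0.36 and 0.13. The ILC3 core list was on that side too, at 0.81, 0.51 and 0.82. No LTi member was past the limit in all 3. LTi members past the limit in the cells without an ending were Lta (2.04), Kit (2.87) and Il1r1 (2.60). In WT cells they were Cxcr5 (2.72), Il1r1 (3.06), Nrp1 (2.05) and Cd83 (2.66). Nrp1 was close to 2 in each, at 2.04, 1.96 and 2.05, with 4 of 10, 8 of 28 and 2 of 14 high cells at 10 TPM or more against 2 of 25, 0 of 4 and 0 of 8 low cells. Cd81 was at 3.83, 1.20 and -0.42. Ltb was at 0.66, 0.52 and 1.51, and Lta turned from -0.97 to 2.04 and 1.70. The survival and death genes had medians of 0.91, 0.67 and 0.29, with 4, 3 and 0 members higher past the limit and 0, 0 and 1 lower (Casp8, at -2.41 in WT cells). Among them Bcl2l1 was at 3.54, 3.27 and 1.63 and Bcl2 at 2.65, 2.12 and 0.47.

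The leading genes did not carry over as a group. Of the 346 genes higher past the limit, 66.2% lay above 0 in the R9-ILCs without an ending, where 64.5% of all genes did, and 60.1% in WT-ILCs, where 55.2% did. Of the 120 lower genes 25% and 41.7% lay below 0, against 30.3% and 43.4% of all genes. Of the 12 leading higher genes 6 and 7 lay above 0, and Igfbp7 was at -0.16 and 1.02. Of the 12 leading lower genes 4 and 8 lay below 0. Cd3g was at 0.95 and 1.00, on the other side of 0, Ncoa7 at 0.21 and 0.82, and Cd96 at 0.31 and 2.40. Ndufb2 stayed low, at -3.04, -1.85 and -4.58. With 4 low cells in 1 set, each of these values rests on few cells.

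Of the 5843 genes used, 346, 473 and 323 were higher past the limit (title ending 1, no ending, WT), and 120, 220 and 152 were lower. Past the limit on the high side in all 3 sets were 8 genes, picked out after their values were seen, and 0 genes were on the low side. The overlap was not tested. The 8 genes were Rab37 (2.28, 4.45 and 3.60), a small GTPase of secretory vesicles, Itm2c (2.93, 3.93 and 2.41), an integral membrane protein, Gpr171 (3.29, 4.13 and 2.54), a receptor of lymphocytes, Tsc22d3 (2.94, 2.06 and 3.54), the glucocorticoid-induced leucine zipper GILZ, the chromatin protein gene Hmgn3 (2.28, 2.36 and 2.54), Glipr1 (2.19, 2.37 and 2.22), Gde1 (2.62, 2.40 and 2.11) and Cript (2.13, 3.07 and 2.72). Gpr171 was at 10 TPM or more in 5 of 10, 23 of 28 and 9 of 14 high cells, and in 1 of 25, 1 of 4 and 1 of 8 low cells. Itm2c had medians of 623.5 TPM in high and 52.9 TPM in low cells of the title ending 1. In those cells, of the 8 genes only Gpr171 (2.73) stayed past the limit when TPM was averaged before the log2 was taken. The others lay between 0.19 (Cript) and 1.44 (Itm2c) on that scale.

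**Figure D5:**
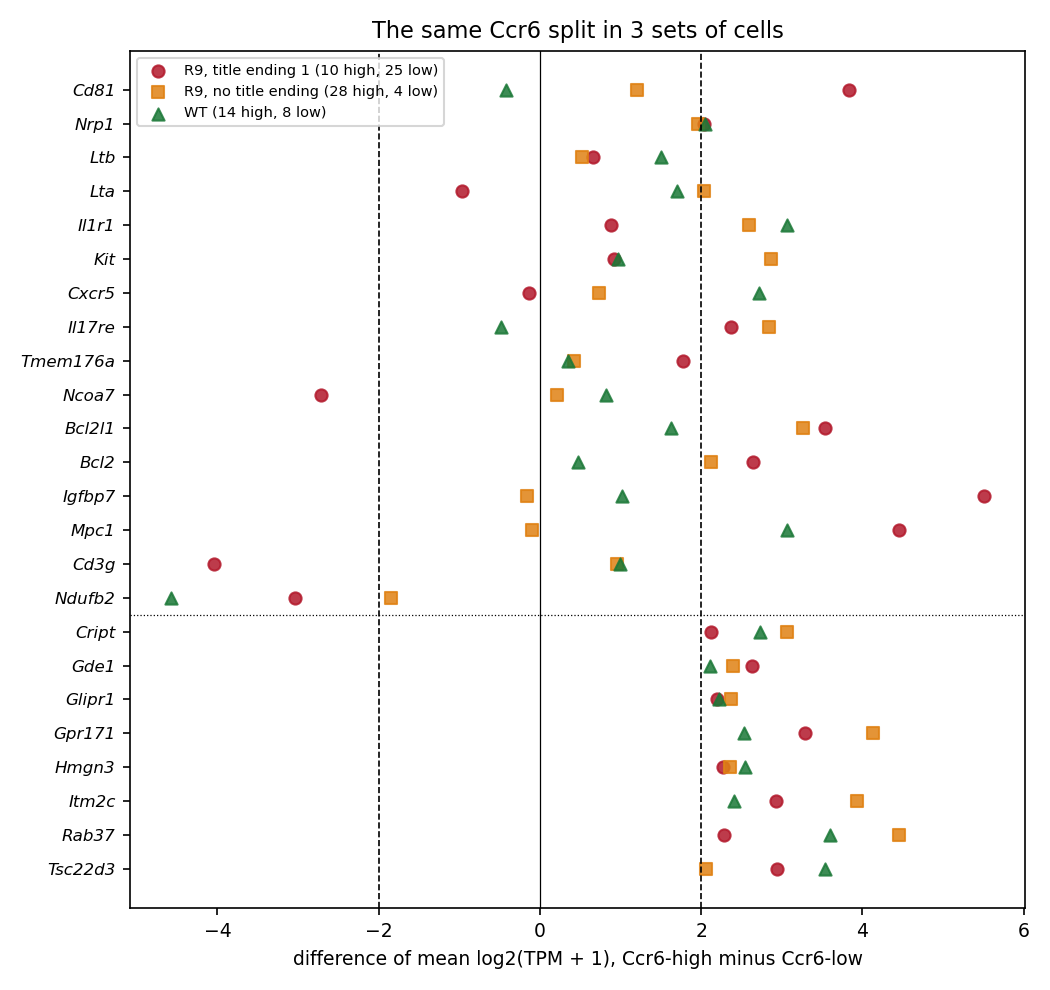
Difference of mean log2(TPM + 1), Ccr6-high minus Ccr6-low, for 16 genes of the lists and leading genes (above the dotted line) and the 8 genes past the limit in all 3 sets (below it). Red circles are the R9-ILCs with title ending 1, orange squares the R9-ILCs without an ending and green triangles the WT-ILCs; Nrp1 lies near 2 in all 3 sets, while Cd81, Lta, Cd3g and Igfbp7 spread over both sides of 0 or away from it.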

How the data were processed

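The authors deposited TPM, transcript abundances scaled so that each column sums to 1000000, for 23420 gene symbols, in separate tables for R9-ILCs and WT-ILCs. Per the submitters' processing notes StringTie 1.3.4, HISAT2 2.1.0, SAMtools 0.1.19, bcl2fastq and the build mm10 were used; their settings are not given in the sources used here. The sequencing depth behind these values is not known, since TPM does not record it, and a listed 0 can be a failed estimate. From TPM, log2(TPM + 1) was averaged by group, so differences are on a scale with 1 TPM added, where those of low genes come out too small. WT columns with r above 0.8 were averaged, leaving 22 cells. 0 sample columns were left unused, and no doublet caller was run.

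The members and gene lists were chosen with earlier results of these data known. Genes named are members of the LTi, ILC3, NCR and ILC2 lists at 1 TPM or more in 50% of the cells of either group, up to 4 members of each other pathway list, markers of other cells, and the 12 largest differences in each direction that kept their sign with any 1 cell left out, without predicted, mitochondrial and ribosomal protein genes. Exceptions are marked in the text, and 1 gene that the rule names is not reported here. Positions are RefSeq GRCm38.p6, the same build as mm10, matched by symbol. The calculation was tested on simulated data. Alternatives varied the pseudocount, mean, filter, scaling, Ccr6 limit, cells and limit. Tools were pandas 2.3.3, numpy 2.4.6, scipy 1.17.1 and matplotlib 3.10.9 under Python 3.11.15.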

Additional observations from a re-analysis of the deposited data

Results flagged for a closer look

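Among 107 values examined in the 10 Ccr6-high cells, 20 had 1 cell far from the other 9, by the gap to the nearest cell as a share of the group's whole range on the log2(TPM + 1) scale. Chance flags about 1 in 20 such groups when values follow a normal distribution, and the rate for values as divided between extremes as these was not computed. In 10 genes the lone cell was the lowest: Rora (gap 0.620 of the range), Tmem176a (0.798), Il2rg (0.651), Ldha (0.630), Atp5g1 (0.797), Ndufs6 (0.649), Tpt1 (0.704), Igfbp7 (0.601), Polr2g (0.743) and Dbp (0.635). In 9 genes it was the highest: Il22 (0.625), Ly6a (0.720), Cd74 (0.605), Ptger4 (0.898), Zfp36 (0.718), Hspa9 (0.858), Creld2 (0.738), Pin4 (0.785) and Lamtor4 (0.659). By genes detected, the cell with 4549 of them stood apart as the highest (0.522), and Ly6a, Cd74 and Hspa9 were highest in that cell too. The cell with the most Ccr6, 2080 TPM, was the lowest for Rora, Tpt1 and Polr2g and the highest for Il22.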

How the results depend on the processing

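The counts past the limit depend on the scale. The 346 higher and 120 lower genes became 624 and 406 with a pseudocount of 0.1 TPM, 83 and 18 with 10 TPM, 1209 and 823 with a limit of 1, and 76 and 16 with a limit of 3. With the log2 of the mean TPM the lower count was 1072, the share of genes past the limit that were higher turned from 74.2% to 30.7%, and the LTi and ILC3 medians were -0.36 and -0.31, where all genes had -0.13. The median of log2 values gave 553 higher genes. Without a filter the LTi and ILC3 medians were 0.012 and 0.20. A Ccr6 limit of 5 TPM gave 65 lower genes. A limit of 1 TPM, which leaves 4 low cells and shifts the median of all genes to 0.55, gave 566 higher and 476 lower genes, an ILC3 median of -0.42, and the opposite sign for Pin4 (1.31), Trmt112 (0.96), Tsc22d4 (1.31) and Ddx39 (0.029). It also reversed LTi and ILC3 genes, among them Tox (-2.75), Rora (-1.65), Tnfsf11 (-2.20), Ltb (-1.32) and Lta (0.38) and took the LTi median to 0.20, and a Ccr6 limit of 5 TPM reversed Tcf7 (0.58). On the medians of log2 values the LTi median was 0.07, where all genes had 0. The cause was not tested.

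With each high cell left out, the higher count was 342 to 426, the lower count 118 to 194 (194 without the cell with 4549 genes), the LTi median 0.49 to 1.10 and the ILC3 median 0.39 to 1.14. Without the cells over 4000 genes the counts were 421 and 139. Without the 2 high cells between 10 and 100 TPM of Ccr6, an alternative chosen after seeing the data, they were 421 and 161. No paired analysis was possible because the result comes from no test and the labels pair no cells. Limits: 10 high cells, 1 sample per group, no animal named, unknown depth, and SDs over cells larger than most differences.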
